A study of Mus musculus with 7 samples.

Results

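The miRNAs of the imprinted Dlk1-Dio3 domain were examined in the colorectum of mice with and without chemically induced colorectal cancer (CRC). The members were chosen by hairpin name: every mature entry whose hairpin is one of 49 listed chromosome 12 hairpins. They gave 98 mature arms, a 5p and a 3p arm for each hairpin, of 1915 mature entries in all. All 6 mice were wild-type female C57BL/6, aged 7 weeks at the start, and small RNA was sequenced from the colorectum. The 3 CRC mice (M4, M5 and M6) received azoxymethane (AOM, a colon carcinogen) by intraperitoneal injection at 10 mg/kg. After 5 days they drank 2.5% dextran sodium sulfate (DSS, an irritant of the colon epithelium) for 7 days and then plain water for 14 days, a cycle the labels give as repeated 3 times. They were taken at what the labels call stage T1, day 17 after AOM and DSS induction. The sources used here do not say how day 17 relates to the repeated cycles. The 3 healthy mice (M1, M2 and M3) were injected with 0.9% NaCl solution. The model is a chemical one in whole colorectum, so tumour, mucosa and muscle wall are not separated, and the labels do not say how much of each piece was tumour. Mouse M1 has 2 labelled libraries but 1 column of counts, and it was counted as 1 mouse. Whether that column is the sum, the mean or 1 of these libraries is not known here, which bears on the depth, limits and intervals given for M1.

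In an imprinted domain a gene is read from the allele of 1 parent only. In the Dlk1-Dio3 domain the protein-coding genes Dlk1, Rtl1 and Dio3 are expressed from the paternal chromosome, and the long non-coding RNAs Meg3, Rian and Mirg, with the RNA antisense to Rtl1, from the maternal one. Most miRNAs of the domain are cut from these maternal transcripts, which are thought to form a long continuous RNA. They are abundant in placenta, embryo and brain, and low in most adult epithelia. Each hairpin yields a 5p and a 3p arm, of which the more abundant is called the guide here and the other the passenger. Bases 2 to 8 of an arm, its seed, pair with target mRNAs.

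All 49 hairpins were placed on chromosome 12 of GRCm38 from the GENCODE M21 annotation. The Meg3 gene (chr12:109541001-109571726) is followed by Rtl1 on the opposite strand (chr12:109589193-109600330), Rian (chr12:109603940-109661716), Mirg (chr12:109729764-109749460), and far downstream Dio3 (chr12:110279068-110281097) with its antisense partner Dio3os. There were 6 hairpins on the Meg3 side before Rtl1, of which mmu-mir-770 lies in a Meg3 exon and 5 in none of these genes. Another 5 lie opposite the Rtl1 exon, on the strand antisense to it: mmu-mir-431, mmu-mir-433, mmu-mir-127, mmu-mir-434 and mmu-mir-136. In Rian introns lie 2 hairpins, mmu-mir-341 and mmu-mir-370. The largest sub-group, called the Mirg region here, held 35 hairpins between 109709060 and 109743795, of which 12 lie inside the annotated Mirg gene and 23 in the stretch before it. The last, mmu-mir-1247, lies in a Dio3os exon on the minus strand, the strand opposite to 47 of the 49.

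The sequences below carry the results that follow. They are RefSeq entries on GRCm38.p6, 5′ to 3′, and 95 of the 98 arms matched an entry, each identical to the sequence in the deposited table. Capitals mark the seed. The first 5 are the 3 arms with the highest log2 fold changes, 2 of them with their partner arms:
miR-323-5p: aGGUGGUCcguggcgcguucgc
miR-323-3p: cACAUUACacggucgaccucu
miR-377-5p: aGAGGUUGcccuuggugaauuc
miR-377-3p: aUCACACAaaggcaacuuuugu
miR-1247-5p: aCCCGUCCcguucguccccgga
The next 5 are Mirg-region arms with values lower in CRC mice, 2 near-identical pairs among them:
miR-376a-3p: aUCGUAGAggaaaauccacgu
miR-376b-3p: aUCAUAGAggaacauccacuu
miR-300-3p: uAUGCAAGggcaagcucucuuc
miR-381-3p: uAUACAAGggcaagcucucugu
miR-382-3p: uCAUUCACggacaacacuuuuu
The last 5 are abundant arms antisense to Rtl1:
miR-127-5p: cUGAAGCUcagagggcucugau
miR-127-3p: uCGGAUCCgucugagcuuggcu
miR-136-5p: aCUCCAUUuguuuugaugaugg
miR-434-5p: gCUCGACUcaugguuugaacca
miR-434-3p: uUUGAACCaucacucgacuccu
Counted from 1 at the 5′ end, miR-300-3p and miR-381-3p shared 19 of 22 bases and differed inside the seed by G4A. The pair miR-376a-3p and miR-376b-3p shared 18 of 21 bases and also differed inside the seed by G4A. The hairpins of the 2 arms that passed the test are shown whole, with both mature arms in capitals, mir-323 at chr12:109712508-109712593 on the plus strand and mir-1247 at chr12:110278048-110278129 on the minus strand:
mir-323: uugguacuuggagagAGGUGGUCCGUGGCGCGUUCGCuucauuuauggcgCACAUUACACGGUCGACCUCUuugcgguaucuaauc
mir-1247: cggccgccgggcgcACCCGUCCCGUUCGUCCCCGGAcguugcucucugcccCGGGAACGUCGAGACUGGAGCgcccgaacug

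The healthy libraries held 8222508 to 15280434 miRNA reads and the CRC libraries 3206127 to 6601899, so every CRC library was shallower than every healthy one. On unscaled totals, the limit that a count of 0 allows (3 counts) was 0.196 to 0.365 counts per 1000000 reads in healthy mice. In CRC mice it was 0.454 to 0.936. The CPM values given for arms below are counts per 1000000 on library sizes scaled by the trimmed mean of M values (TMM). They are therefore not on the scale of this limit. This limit and the intervals below cover counting error only. The listed intestinal epithelium miRNAs took 12.5% to 17.8% of reads in the 6 mice, and the 11 listed muscle entries (mir-143, mir-145a, mir-1a and mir-133 arms) took 41.6%, 48.0% and 21.1% in M1, M2 and M3 and 20.7%, 7.08% and 6.56% in M4, M5 and M6. The healthy mouse M3 and the CRC mouse M4 therefore lay close together in muscle share, and results are given also without both. On the log2 scale across the 73 tested cluster arms, Pearson's r was 0.99 between M1 and M2, 0.94 between M5 and M6, and 0.91 between M3 and M4, while M1 with M5 gave 0.74. M4 was as near to M1 (0.91) as to M3, and M1 with M3 gave 0.87. These values are descriptive, since arms of 1 library share its depth and composition.

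With mir-1247 included, the cluster's mean share of reads was nearly equal in the groups, while its make-up differed between mice. It held 0.275%, 0.263% and 0.310% of all miRNA reads in M1, M2 and M3 and 0.195%, 0.348% and 0.305% in M4, M5 and M6. The group ranges overlapped, at 0.283% ± 0.0244 (SD, n = 3) in healthy and 0.283% ± 0.0788 in CRC mice. The widest 95% Wilson interval, in M5, ran from 0.342% to 0.354%. Without mir-1247 the share was 0.281% ± 0.0228 in healthy and 0.250% ± 0.0577 in CRC mice, and the ranges still overlapped. CPM on the TMM-scaled library sizes gave another order. On that scale the cluster summed to 3826, 4519 and 2808 CPM in healthy mice and 2059, 2248 and 2078 CPM in CRC mice, so every CRC mouse lay below every healthy one. The TMM factors ran from 0.582 in M2 to 1.55 in M5. With the muscle reads left out of the total, the log2 ratio of the CRC to the healthy share was -0.53. The part of the muscle reads in these differences was not tested, and in whole tissue fewer cells of a type and less RNA per cell cannot be told apart.

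Within the cluster, Mirg-region arms made up 78.2% and 78.8% of cluster reads in M1 and M2, 55.1% in M3, and 64.7%, 54.4% and 52.2% in M4, M5 and M6. Arms antisense to Rtl1 made up 17.6%, 17.7% and 40.5% in healthy mice and 27.6%, 28.2% and 30.9% in CRC mice. M1 and M2 stood apart from the other 4 mice on both measures, and M3 was the most extreme for the Rtl1 side, so the groups overlapped. The mir-1247 hairpin alone made up 0.427%, 0.222% and 1.17% of cluster reads in M1 to M3 and 4.06%, 13.6% and 14.0% in M4 to M6, with no overlap. The most abundant arm was miR-376a-3p in M1 and M2, miR-136-5p in M3, miR-127-3p in M4, and miR-1247-5p in M5 and M6.

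**Figure D1:**
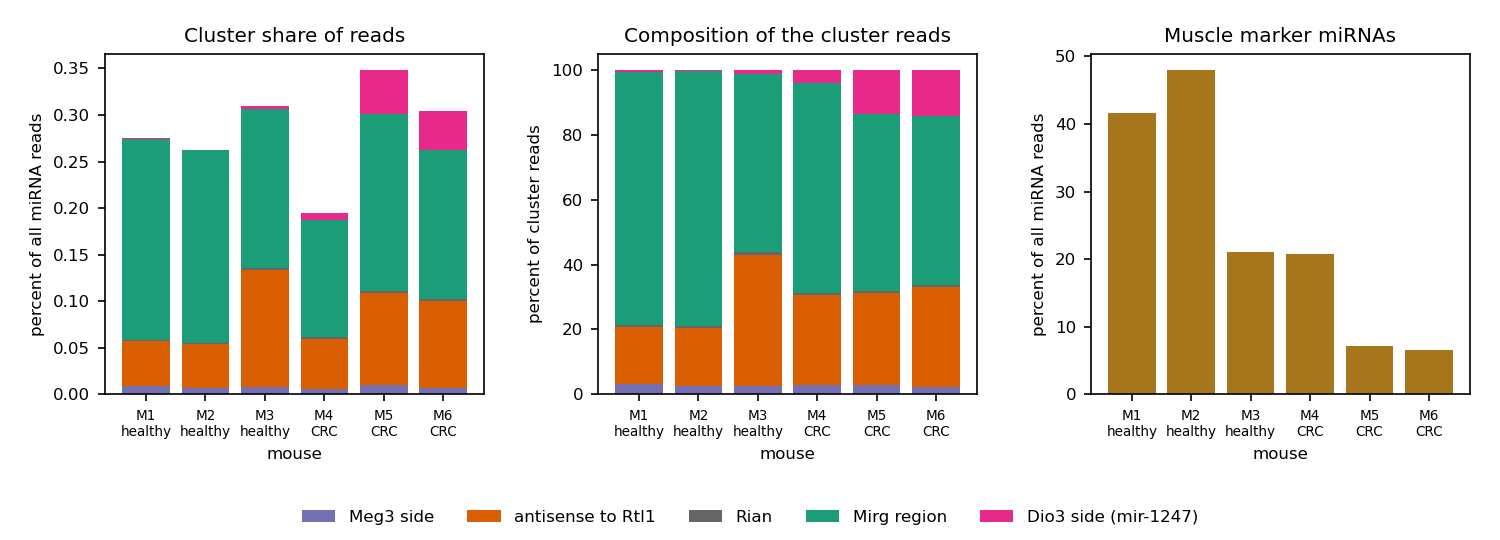
Stacked bars per mouse give the cluster's share of all miRNA reads (left, percent) and its make-up by position (middle, percent of cluster reads), beside the share of the muscle marker miRNAs (right, percent of all miRNA reads). The mir-1247 segment grows to 14.0% of cluster reads in M6, and the muscle share of M3 (21.1%) sits next to that of M4 (20.7%).

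In the test of each arm, 2 cluster arms rose in CRC mice, miR-1247-5p and miR-323-5p, and no arm passed in the lower direction. The edgeR quasi-likelihood test was fitted on all 878 miRNAs with enough reads and adjusted over them by the Benjamini-Hochberg method, with a threshold of 0.05. Of the 98 arms 73 could be tested, and the 25 others averaged at most 1.42 CPM. Across all tested miRNAs 2.28% passed as higher and 0.0% as lower, so 2 of 73 lay near that background. By limma-voom, none of the 73 passed, and 31 had an unadjusted p under 0.05, as did 24.6% of all tested miRNAs. With a filter at 10 CPM in edgeR none of 52 arms passed, and 23 had an unadjusted p under 0.05 (26.0% of all miRNAs tested there). By DESeq2, fitted with no filter on low counts beforehand, 3 arms passed as higher and 20 as lower. The shares over the 1907 entries it tested were 3.62% and 2.62%, a wider set than the 878 of edgeR. By edgeR, 26 cluster arms had an unadjusted p under 0.05 in the lower direction (35.6%) and 3 in the higher direction (4.11%). The same shares over all tested miRNAs were 9.68% and 13.6%.

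The median log2 fold change of the 73 tested arms was -1.01, beside -0.03 over all 878 tested miRNAs. It was negative for 66 of them, where 51.5% of all tested miRNAs were negative. In 23 arms every CRC mouse had a lower CPM than every healthy mouse (12.4% of all tested miRNAs did), and in 3 every CRC mouse was higher (14.1%). In plain percent of reads, 9 arms were lower in every CRC mouse (3.87% of all tested miRNAs) and 4 were higher (19%). Scaled by total reads only, the median was -0.20 beside 0.62 for all tested miRNAs, and 44 arms were negative. With no filter on low counts all 98 arms entered, of which 76 were negative, with a median of -0.83, and 3 passed as higher and 4 as lower (2.72% and 0.627% of all miRNAs tested there). The number of arms that passed turned on single mice. It was 0 without M1, M2, M5 or M6. Without M3 it was 16 (1 higher and 15 lower, against 2.72% and 3.18% of the miRNAs tested there). Without M4 it was 18 (3 higher and 15 lower, against 14.3% and 5.64%). Without both M3 and M4 it was 52, of which 48 were lower and 4 higher (27.4% and 25.8% of the miRNAs tested there). M3 and M4 were picked by their muscle share in these same data, so the calls without both are no further support.

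**Figure D2:**
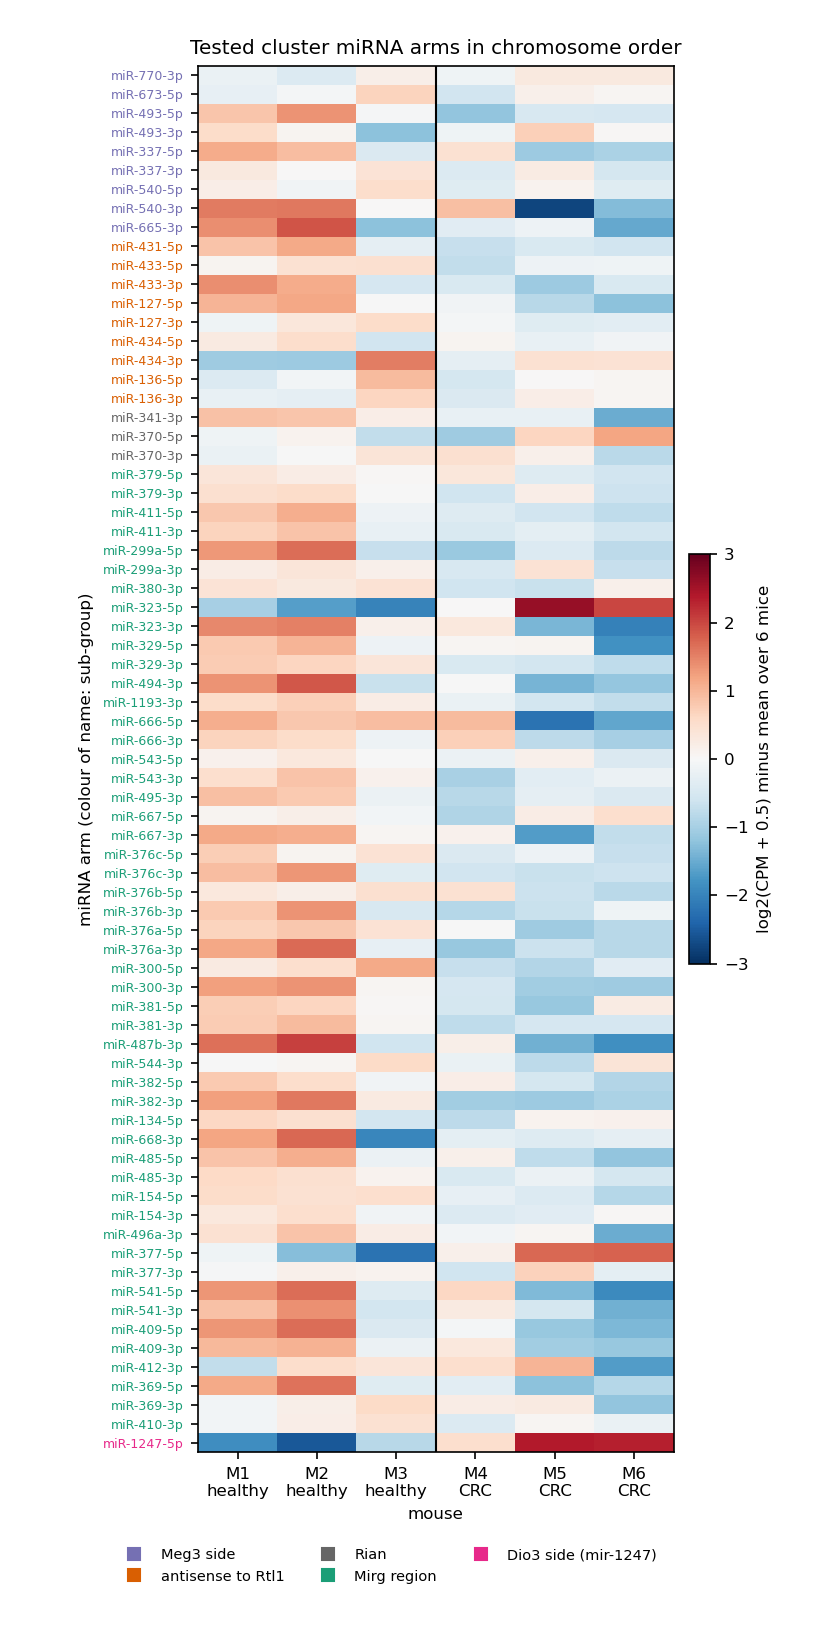
Each row is a tested cluster arm in chromosome order, each column a mouse, and colour gives log2(CPM + 0.5) minus the arm's mean over the 6 mice. Red rows in M5 and M6 are miR-323-5p, miR-377-5p and miR-1247-5p, while M1 and M2 are red for most other arms. M3 and M4 are pale in many rows but not in all, and M3 is red for miR-434-3p.

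The arm miR-1247-5p, from the Dio3 end of the domain, had 15.7, 9.56 and 32.5 CPM in M1, M2 and M3 and 82.8, 305 and 292 CPM in M4, M5 and M6. Every CRC mouse was above every healthy mouse, and M4 was the lowest of the CRC mice. Its mean was 19.2 ± 11.9 CPM (SD, n = 3) in healthy and 226 ± 125 CPM in CRC mice, a log2 fold change of 3.56 with a standard error (SE) of 0.67 and an edgeR adjusted p of 0.0451. These values rest on 85 to 295 reads in healthy and 518 to 1684 reads in CRC libraries. Its partner miR-1247-3p was nearly absent, at a mean of 0.484 CPM in the healthy and 0.749 CPM in CRC mice, and was not tested.

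The arm miR-323-5p, from the stretch before Mirg, had 3.80, 2.25 and 1.65 CPM in M1 to M3 and 8.15, 52.5 and 34.0 CPM in M4 to M6. The groups did not overlap, with M5 the highest and M4 again nearest to the healthy mice. The log2 fold change was 3.61 (SE 0.74, edgeR adjusted p 0.0451), from 15 to 34 reads in healthy and 51 to 290 reads in CRC libraries. The other arm of the hairpin, miR-323-3p, lay on the opposite side, at 31.0, 32.9 and 12.5 CPM in healthy mice and 13.9, 3.98 and 2.34 CPM in CRC mice. M4 was slightly above M3, so its groups overlapped, and its log2 fold change of -1.90 (SE 0.72) gave an edgeR adjusted p of 0.151.

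Both calls lay just under the threshold. Neither arm passed without M1, M2, M5 or M6 (edgeR adjusted p 0.0651 to 0.137), nor, for miR-323-5p, without M3 (0.0557), although every such log2 fold change stayed between 3.05 and 4.02.

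In the Mirg region, 51 of 70 arms were tested, 1 rose (miR-323-5p) and none passed in the lower direction. The log2 fold change was negative for 48 of the 51, with a median of -1.04, and 20 had an unadjusted p under 0.05 in the lower direction. The 32 arms from before the annotated Mirg gene had a median of -1.08 and 16 such arms, and the 19 from inside it -0.91 and 4, a difference that was not tested. The most abundant arm, miR-376a-3p, had 381, 556 and 143 CPM in M1, M2 and M3 and 77.3, 108.1 and 95.5 CPM in M4, M5 and M6. On this scale every CRC mouse was below every healthy mouse, with M2 the highest. In plain percent of reads M5 lay above M3, so the groups overlapped. The log2 fold change was -1.94 (SE 0.53, edgeR adjusted p 0.0746). The passenger miR-376a-5p did not overlap on either scale, at 19.5 to 25.3 CPM in the healthy and 6.52 to 14.1 CPM in CRC mice.

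The lowest adjusted p among arms with lower values belonged to miR-382-3p, a passenger arm. It had 44.98, 57.2 and 22.8 CPM in healthy mice and 8.95, 8.69 and 9.57 CPM in CRC mice. The CRC values were nearly the same, while the healthy values were spread more widely, and the log2 fold change of -2.20 (SE 0.49) had an edgeR adjusted p of 0.0517. It passed under 7 of 17 alternatives. The near-identical arms miR-300-3p and miR-381-3p, shown above, also did not overlap between groups. The first had 172, 186 and 76.6 CPM in the healthy and 51.1, 35.5 and 34.7 CPM in CRC mice (log2 fold change -1.84, edgeR adjusted p 0.0622). The second had 183, 210.4 and 113 CPM in the healthy and 63.4, 76.8 and 75.7 CPM in CRC mice (-1.23, edgeR adjusted p 0.119).

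Some Mirg-region arms were high mainly in M1 and M2. The lowest log2 fold change, -2.21 (SE 0.78, edgeR adjusted p 0.133), belonged to miR-487b-3p, with 54.8, 72.9 and 11.1 CPM in the healthy and 19.5, 5.98 and 4.47 CPM in CRC mice. The arm miR-494-3p was likewise highest in M2 and M1, with 121, 173 and 29.4 CPM in the healthy and 47.0, 17.6 and 20.8 CPM in CRC mice. In both arms M4 was above M3, so the groups overlapped. By contrast miR-379-5p, the first hairpin of the array known in brain as the miR-379/410 cluster, had 166, 151 and 133 CPM in the healthy and 164, 99.6 and 86.3 CPM in CRC mice, with a log2 fold change of -0.37 (SE 0.41), or 0.30 scaled by total reads only. M4 lay within the healthy range. The arm miR-134-5p, known to act at the dendritic spines of neurons, overlapped as well, at 37.2 to 84.2 CPM in the healthy and 31.5 to 60.0 CPM in CRC mice.

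A second hairpin of the region, mir-377, had a passenger arm with higher values in CRC mice. Its miR-377-5p had 9.62, 4.05 and 1.87 CPM in M1 to M3 and 11.8, 35.9 and 37.0 CPM in M4 to M6. The groups did not overlap, but the edgeR adjusted p was 0.0854 (log2 fold change 2.44, SE 0.71), and M4 was close to M1. Its guide miR-377-3p had 16.3, 18.7 and 18.1 CPM in the healthy and 11.03, 27.3 and 13.6 CPM in CRC mice, with a log2 fold change of -0.03, or 0.77 scaled by total reads only.

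**Figure D3:**
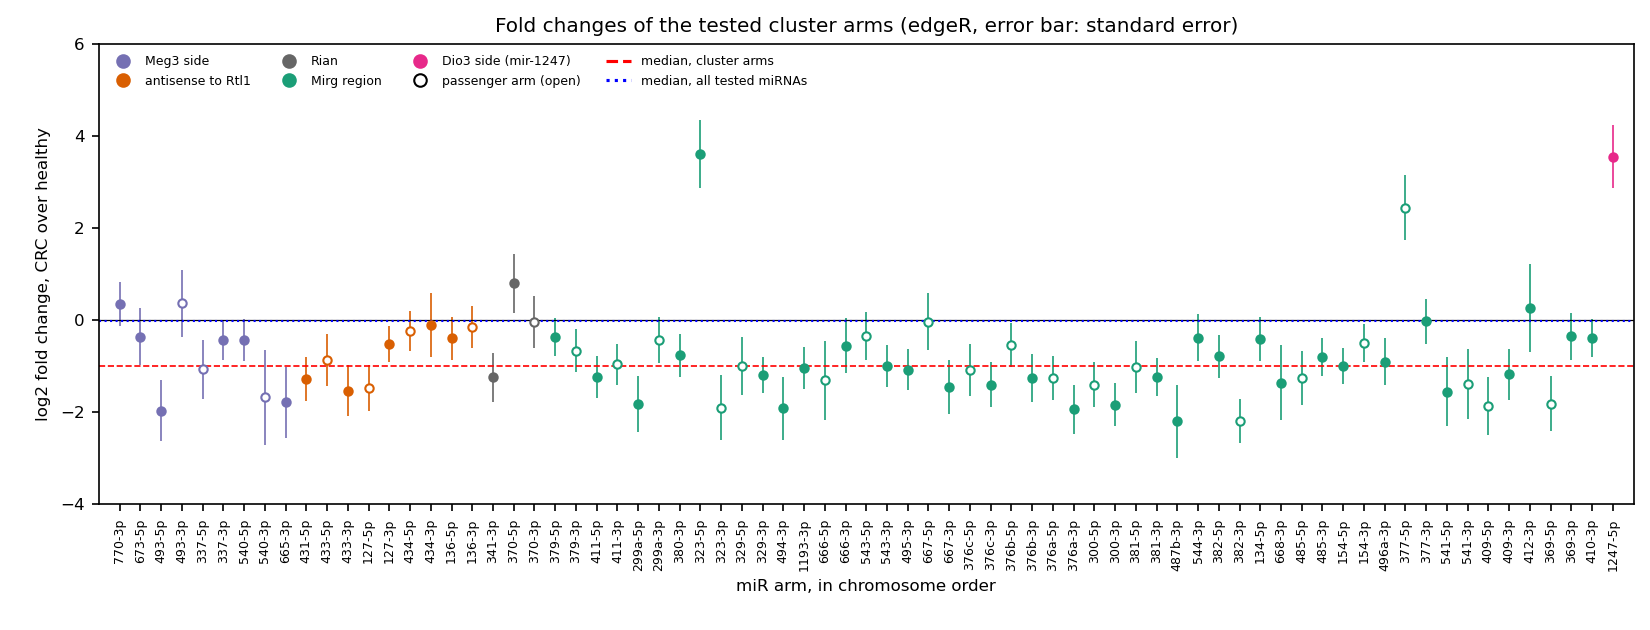
Points give the edgeR log2 fold change of each tested arm (CRC over healthy) in chromosome order, bars the standard error, filled points guide arms and open points passenger arms. Most points lie around the cluster median of -1.01 (dashed), below the median of all tested miRNAs at -0.03 (dotted), and miR-323-5p (3.61), miR-377-5p (2.44) and miR-1247-5p (3.56) lie above.

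The 5 hairpins antisense to Rtl1 yield miRNAs fully complementary to the Rtl1 mRNA, which they are known to cleave. Of their 10 arms 9 were tested and none passed. All 9 log2 fold changes were negative, from -1.54 to -0.11 with a median of -0.52. By edgeR, 3 had an unadjusted p under 0.05 (33.3%, beside 9.68% lower over all tested miRNAs). Scaled by total reads only, the guides miR-127-3p, miR-136-5p and miR-434-3p turned positive (0.13, 0.23 and 0.37). The guide miR-127-3p had 185, 256 and 300.3 CPM in the healthy and 195, 160 and 162 CPM in CRC mice. M4 lay just inside the healthy range, and the log2 fold change was -0.52 (SE 0.39, edgeR adjusted p 0.439). Its passenger miR-127-5p did not overlap, at 70.9, 78.5 and 34.5 CPM in the healthy and 32.0, 19.2 and 14.5 CPM in CRC mice (log2 fold change -1.49, SE 0.50, edgeR adjusted p 0.121).

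The healthy mouse M3 stood out on the Rtl1 side. In it miR-434-3p reached 284 CPM, against 46.8 and 46.1 CPM in M1 and M2 and 81.2, 136 and 133 CPM in the CRC mice. The log2 fold change was -0.11 (SE 0.70) with all mice and 1.23 without M3 (edgeR adjusted p 0.0744). The sign also turned with M3 kept, under total-count scaling (0.37) and under limma-voom (0.42), so no direction is read from it. The same mouse was highest for miR-136-5p, at 389.8 CPM against 151 and 191 CPM in M1 and M2 and 141, 205 and 209.7 CPM in the CRC mice. The listed white blood cell miRNAs took 1.69% of reads in M3, against 0.275% and 0.185% in M1 and M2 and 0.757% to 1.20% in the CRC mice, and their part in these values was not tested.

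On the Meg3 side 9 of 12 arms were tested by edgeR and none passed, with a median log2 fold change of -0.44. An unadjusted p under 0.05 was seen for 2, both lower (22.2%, beside 9.68% of all tested miRNAs). The most abundant arm of this side was miR-337-3p, at 26.2, 21.6 and 28.4 CPM in the healthy and 16.1, 25.4 and 14.7 CPM in CRC mice, with overlap. The arm miR-665-3p had 34.1 and 48.6 CPM in M1 and M2 but 5.18 CPM in M3, and 9.91, 11.4 and 4.04 CPM in CRC mice. Only M1 and M2 were high, and its log2 fold change of -1.79 (SE 0.77) had an edgeR adjusted p of 0.196. The arm miR-540-5p ranged from 12.04 to 18.8 CPM in the healthy and from 9.99 to 13.9 CPM in CRC mice.

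The Rian hairpins were low throughout. Here miR-341-3p had 20.8, 20.1 and 12.7 CPM in the healthy and 9.43, 9.42 and 3.61 CPM in CRC mice. The groups did not overlap on this scale, but in plain percent of reads M5 lay within the healthy range. The log2 fold change was -1.25 (SE 0.53), with an edgeR adjusted p of 0.195. Both arms of mir-370 stayed under 11 CPM, and miR-370-5p, at 2.31 to 4.61 CPM in the healthy and 1.76 to 10.2 CPM in CRC mice, overlapped.

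Guides and passengers had similar median fold changes. The guide was the 3p arm in 34 hairpins and the 5p arm in 15. Among 45 tested guides the median log2 fold change was -0.9999, and 2 rose, miR-1247-5p and miR-323-5p. Among 28 tested passengers the median was -1.02 and none passed. An unadjusted edgeR p under 0.05 in the lower direction was seen for 19 guides (42.2%) and 7 passengers (25.0%), beside 9.68% of all tested miRNAs. The difference between the kinds of arm was not tested. The guide of mir-323, fixed by the mean over all 6 mice, was its 5p arm, although the 3p arm was the larger in each healthy mouse.

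The ratio of the arms within a hairpin does not depend on how libraries are scaled, and it was tested with limma on log2 of the 5p over the 3p count (0.5 added to each). Of 30 cluster hairpins with at least 10 reads on average in both arms, none passed at an adjusted p under 0.05, and 5 had an unadjusted p under 0.05. In 2 of these 5, mir-431 and mir-493, an arm reached the minimum through the healthy mice only. Over all 234 hairpins tested 0.427% passed, and 12.4% had an unadjusted p under 0.05. In 8 cluster hairpins the 5p arm was the larger in every mouse, in 15 the 3p arm was, and in 7 the larger arm differed between mice.

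The largest difference was that of mmu-mir-323. Its 5p arm made up 10.9%, 6.41% and 11.7% of the hairpin's reads in M1, M2 and M3 and 37.0%, 92.9% and 93.6% in M4, M5 and M6. The 95% Wilson intervals were 7.23% to 18.4% in M3, 29.4% to 45.3% in M4 and 89.6% to 95.3% in M5, so M4 stood between the healthy mice and the other CRC mice. The log2 ratio differed by 5.48 (SE 1.12, limma adjusted p 0.0970). Without M4 it passed (limma adjusted p 0.000662), where 4.58% of all hairpins tested did. That fit leaves out the CRC mouse nearest to the healthy ones and keeps only M5 and M6, so its pass is no further support. In mir-377 the 5p share was 37.1%, 17.8% and 9.39% in healthy and 51.7%, 56.7% and 73.1% in CRC mice, without overlap (limma adjusted p 0.153).

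The hairpin mir-431 was mostly 5p everywhere. Its 5p share was 93.3%, 95.9% and 85.6% in healthy and 100%, 98.9% and 100% in CRC mice. Its 3p arm had 27, 19 and 29 reads in M1 to M3 and 0, 1 and 0 reads in M4 to M6, so the tested ratio in CRC mice was set largely by the added 0.5. By the limit of 3 counts, not a Wilson interval, the absence of 3p reads in M4 and M6 allows a 3p share of up to 3.41% and 4.17% there. In mir-382 the 5p share was 55.9% to 66.8% in healthy and 73.7% to 86.5% in CRC mice. In mir-493 it went the other way, at 59.6% to 83.3% in healthy and 27.3% to 41.7% in CRC mice, on only 11 to 60 reads per library, with 3 to 6 reads of the 5p arm in CRC mice. In mir-434 it was 61.1% and 65.4% in M1 and M2 but 12.5% in M3, with 44.1%, 27.5% and 29.7% in CRC mice, and the groups overlapped. Without both M3 and M4, 11 of 29 cluster hairpins passed, where 35.9% of all hairpins tested did. Both mice were picked by values of these same data, so that count is no further support.

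**Figure D4:**
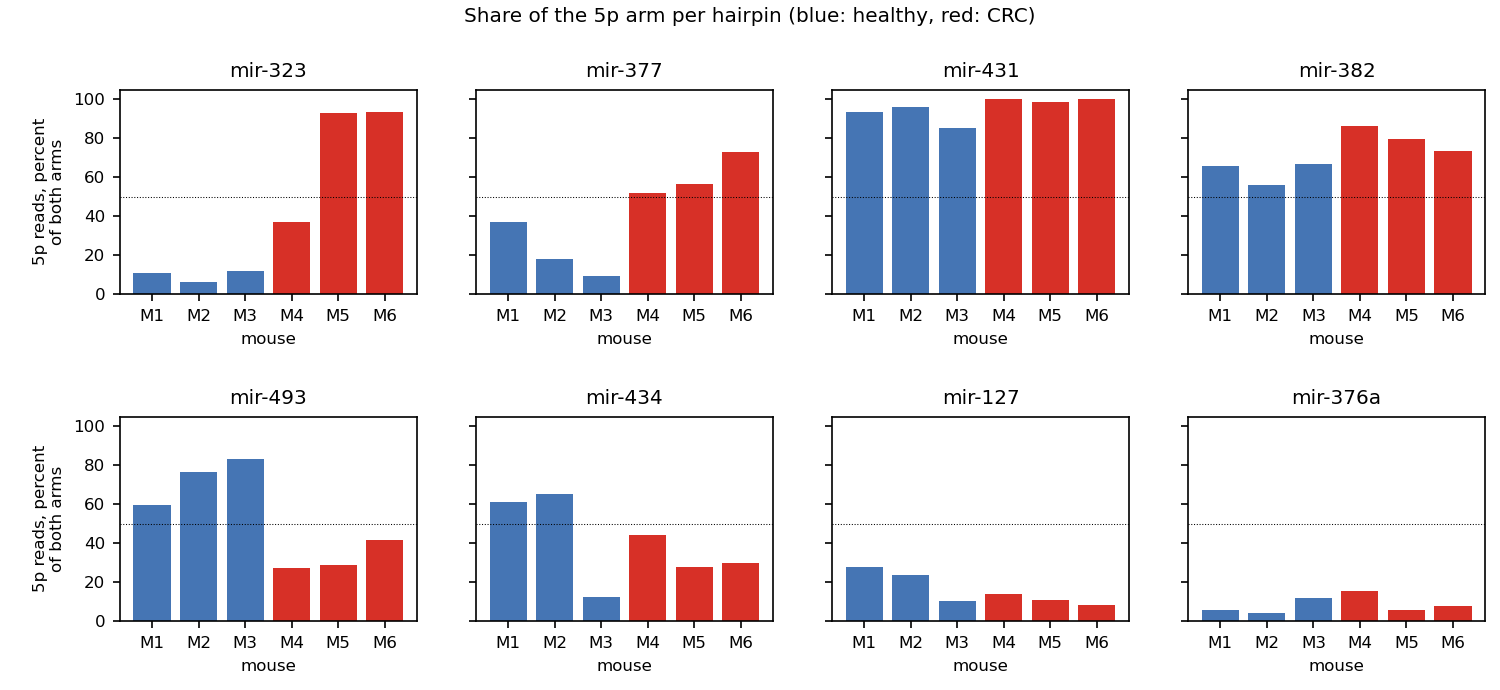
Bars give the 5p share of each hairpin's reads (percent of both arms) per mouse, for the 5 cluster hairpins with an unadjusted p under 0.05 and for mir-434, mir-127 and mir-376a. For mir-323 the share is at most 11.7% in healthy mice and 92.9% and 93.6% in M5 and M6, while mir-434 is lowest in the healthy mouse M3 (12.5%).

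Shared seeds grouped few of the 95 arms, with 6 seeds held by 2 arms each. The arms miR-379-3p and miR-411-3p share the seed AUGUAAC and 20 of 22 bases, and are shown for that reason:
miR-379-3p: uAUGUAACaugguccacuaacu
miR-411-3p: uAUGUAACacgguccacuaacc
Their CPM were 15.8 to 23.4 and 28.1 to 59.9 in healthy mice, and 10.2 to 18.3 and 22.1 to 26.4 in CRC mice. On this scale the groups overlapped for miR-379-3p and did not for miR-411-3p, while in plain percent of reads they overlapped for both. Neither arm passed (edgeR adjusted p 0.413 and 0.221). The other shared seeds were those of miR-379-5p with miR-1193-5p, miR-410-5p with miR-494-5p, miR-376b-5p with miR-376c-5p, miR-370-5p with miR-1193-3p, and miR-299a-3p with miR-299b-3p.

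Some members share sequence with other entries. The entries miR-3071-3p and miR-3071-5p are reverse complements of the mir-136 arms, and their counts were 0.957 to 1.08 times those of miR-136-5p and 0.919 to 1.18 times those of miR-136-3p. The same held for miR-3544-5p against miR-337-3p, at 0.826 to 1.08 times. The sources do not say whether reads were counted by strand, so these entries cannot be told apart from their partners. The arms of mir-299b are contained in those of mir-299a, and their values are uncertain.

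Base composition moved with the fold changes. Over the 73 arms Pearson's r between GC content and log2 fold change was 0.32, and over all 878 tested miRNAs 0.35, as a description across arms. Both arms that passed are 72.7% GC. With the GC trend of each library removed, miR-1247-5p kept an edgeR adjusted p of 0.0353 at a log2 fold change of 2.60, and miR-323-5p had 0.0709 at 2.58, where 1.59% of all tested miRNAs passed as higher. The 25 tested cluster arms under 45% GC had a median log2 fold change of -1.03, where all tested miRNAs of that range had -0.32. In the 28 arms of 45% to 55% GC the medians were -1.13 and -0.17, and in the 20 arms of 55% GC or more -0.42 and 0.51.

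**Figure D5:**
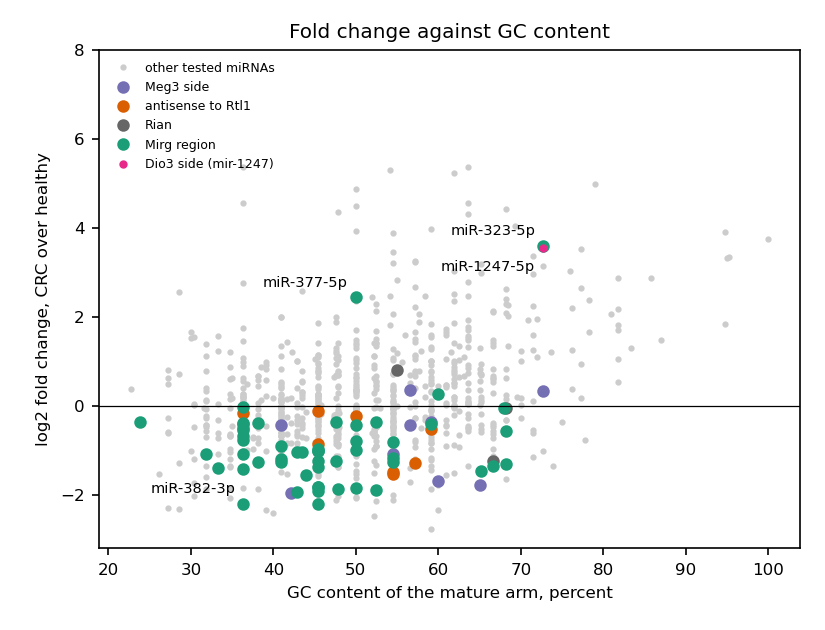
Each point is a tested miRNA, with GC content of the mature arm in percent on the x axis and the edgeR log2 fold change (CRC over healthy) on the y axis; cluster arms are coloured by sub-group. The points of miR-323-5p and miR-1247-5p nearly coincide at 72.7% GC, and the cluster medians (-1.03, -1.13 and -0.42) lie below those of all tested miRNAs (-0.32, -0.17 and 0.51) in the 3 GC ranges.

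Marker lists for other cell types were read beside these values. All 10 tested muscle entries had negative log2 fold changes (median -1.86), none passed, and all 10 had an unadjusted p under 0.05. Of 7 tested nerve entries 5 were negative and none passed, with an unadjusted p under 0.05 for 2 in the lower and 1 in the higher direction (edgeR). Among them miR-124-3p, a neuronal miRNA, had 269, 268 and 83.3 CPM in the healthy and 66.8, 29.0 and 26.6 CPM in CRC mice. The one in the higher direction, miR-219a-1-3p, had 10.1, 8.78 and 10.5 CPM in M1 to M3 and 20.9, 47.1 and 43.4 CPM in M4 to M6, without overlap. The listed nerve entries took 0.0766%, 0.0610% and 0.0639% of reads in healthy and 0.0454%, 0.0525% and 0.0504% in CRC mice, without overlap. The 6 fibroblast entries had a median of -0.60 and the 19 epithelial entries -0.84, and in neither list did an entry pass by edgeR (1 and 3 had an unadjusted p under 0.05). For the 2 endothelial entries the median was 0.19. White blood cell entries had a median of 0.11 over 6, and the 3 red blood cell entries 1.55. M3 was nearer to M4 than to M1 and M2 for the muscle share, and the part of these cell types in the cluster's values was not tested.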

How the data were processed

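Small RNA from the colorectum of 6 mice (7 labelled libraries) was sequenced on an Ion Proton with the Ion Total RNA-Seq Kit v2, per the labels' protocols. The authors deposited raw read counts per mature miRNA. BWA and mm10/GRCm38 are named in the submitters' processing notes, with no role. The counting rule, strand use and miRNA annotation are not given in the sources used here. Library totals were 3206127 to 15280434 counts. No batch, day or pairing is labelled. With 3 mice a group, each p-value sets the group difference against the spread between these mice, moderated over all tested miRNAs or hairpins.

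Counts were tested with edgeR 4.0.16 (TMM scaling, filterByExpr, robust quasi-likelihood fit, two-sided) in R 4.3.3 over all miRNAs, and arm ratios with limma 3.58.1. DESeq2 1.42.0, limma-voom, other scalings and filters, removal of the GC trend, summing of shared sequences and leaving out mice were alternatives. Positions came from GENCODE M21 and sequences from RefSeq.

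Arms named with values were those past the threshold, the 3 most abundant of each sub-group, the 5 lowest and 5 highest log2 fold changes among arms of at least 10 CPM in 1 group, and both arms of mir-127, mir-323, mir-376a and mir-1247. Other arms (miR-134-5p, miR-300-3p, seed pairs and hairpins of the arm test) were added after their values were seen. The members, rules and lists (muscle, nerve, fibroblast, endothelium, epithelium, red and white blood cells, other cluster hairpins, other imprinted loci) were chosen with earlier results of these data known. Wilson intervals are at 95%.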

Additional observations from a re-analysis of the deposited data

How the results depend on the processing

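No paired analysis was possible because the groups are different mice and the labels give no pairing. The number of cluster arms past the edgeR test was 2, where 2.28% of all tested miRNAs passed as higher and 0.0% as lower. It was 7 with no filter (2.72% and 0.627%), 23 with DESeq2 (3.62% and 2.62%) and 1 with the GC trend removed (1.59% and 0.114%). Without M3 and M4 it was 52 (25.8% and 27.4%). With a filter at 10 CPM in edgeR none passed, and 23 had an unadjusted p under 0.05 (26.0% of all miRNAs). With limma-voom none passed, and 31 had an unadjusted p under 0.05 (24.6%). Leaving out each mouse in turn gave 0 to 18 arms, the most without M4 (14.3% and 5.64% of all miRNAs). The median log2 fold change of -1.01 was -0.20 on total counts only and -1.46 without M3 and M4, and -1.19 to -0.67 leaving out each mouse. The log2 ratio of the cluster's share, near 0 on percent of reads, was -0.80 on TMM-scaled CPM and -0.53 with the muscle list left out of the total. The number of hairpins with changed arm usage was 0 to 1 leaving out each mouse and 11 without M3 and M4 (35.9% of all hairpins tested there). M3 and M4 were picked by values of these same data, so the fits without both are no further support. The other alternatives kept these 4 results within the spread of the mice or within 1.5 times the count.

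Among single arms, scaling by total counts only turned the log2 fold change positive for miR-127-3p (0.13), miR-136-5p (0.23), miR-337-3p (0.28), miR-370-3p (0.54), miR-377-3p (0.77), miR-379-5p (0.30), miR-434-3p (0.37) and miR-540-5p (0.24). Leaving out each mouse gave -0.64 to 0.021 for miR-136-5p, -0.33 to 0.27 for miR-370-3p, -0.50 to 0.29 for miR-377-3p and -0.50 to 1.23 for miR-434-3p. With shared sequences summed miR-370-3p, miR-377-3p and miR-434-3p had 0.093, 0.16 and 0.055. With the filter at 10 CPM miR-377-3p and miR-434-3p had 0.089 and 0.040, and with the GC trend removed 0.31 and 0.19. For miR-434-3p limma-voom gave 0.42, and the fit without M3 and M4 gave 1.25. The cause was not tested. The calls of miR-1247-5p and miR-323-5p were lost with the filter at 10 CPM (edgeR adjusted p 0.0533) and with limma-voom (0.110). CRC libraries were the shallower ones, so arms of a few CPM were measured least precisely there.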

Other observations

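Of 15 further entries from hairpins of the same domain that are no members, 9 were tested and none passed. Their median log2 fold change was -0.07 and 5 of the 9 were negative, beside -1.01 and 66 of 73 for the members. By edgeR, 1 of these further entries had an unadjusted p under 0.05. That one, miR-1188-5p, had 11.4, 7.09 and 9.92 CPM in M1 to M3 and 7.51, 79.7 and 58.9 CPM in M4 to M6, with a log2 fold change of 2.36 (SE 0.75, edgeR adjusted p 0.106). M5 and M6 were high and M4 lay with the healthy mice, so the groups overlapped. A similar order was seen for miR-758-5p, at 32.8, 12.6 and 10.7 CPM in healthy and 7.67, 49.96 and 64.9 CPM in CRC mice (edgeR adjusted p 0.391).

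Of 10 entries from other imprinted loci, 9 were tested and none passed (edgeR, 2 at an unadjusted p under 0.05), with a median log2 fold change of 0.83. They were miR-483-5p, from an intron of the growth factor gene Igf2 (2.07, edgeR adjusted p 0.0985), and miR-675-5p, from the non-coding RNA H19 (2.79, edgeR adjusted p 0.103). Both rest on 27 reads or fewer per library. The arm miR-335-5p, from the Mest locus, had a log2 fold change of -0.47.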
